A study of Mus musculus with 8 samples.

Results

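The cells described here are the oligodendrocytes of aged *Rag1*-/- mice, compared between white and gray matter. They are all cells that the authors listed as oligodendrocytes in libraries labelled *Rag1*-/-, which gave 9601 of the 15604 oligodendrocytes of both genotypes and of 29631 cells of all types. Gray matter is 1 library with 1055 oligodendrocytes, and white matter is 3 libraries with 3055, 1632 and 3859 oligodendrocytes, here called white matter libraries 1, 2 and 3. The *Rag1*-/- mice were 24 months old and carried a targeted *Rag1* allele on a strain that the sample labels give as NOD.129S7(B6)-Rag-1tm1Mom/J. The study's methods give that allele on a B6 rather than a NOD background, and the files used here do not settle the difference. The wild-type mice used for reference were of the same age and of strain C57BL/6 by the labels (C57BL/6J by the study's methods), with 2 gray and 2 white matter libraries. Gray matter was frontal cortex, and white matter was dissected from optic tracts, medial lemniscus and corpus callosum, so tissue and brain region cannot be told apart. Gray matter and white matter library 1 came from the same pooled mice in experiment batch 1, whereas white matter libraries 2 and 3, of batch 2, came from 1 mouse each by the study's list of animals, although its methods describe pooling for all such samples. Cells were dissociated with an inhibitor of transcription, sorted as live cells without a cell type marker and sequenced on the 10x platform, which counts transcripts by unique molecular identifiers (UMIs).

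Oligodendrocytes form the myelin around axons, and most cells of white matter tracts belong to their lineage, whereas they are sparser among the neurons of the cortex. The Rag1 protein is part of the recombinase that assembles antigen receptor genes, and without it mature T and B cells do not form, while NK cells and other innate cells remain. Oligodendrocytes in aged or injured white matter are known to take up reactive states, one with genes of cytokine signaling through gp130 and STAT3 and the acute phase, such as *Serpina3n*, and another with interferon-stimulated genes. The comparison asks which differences between the tissues are seen in mice labelled as lacking the gene needed for mature T and B cells.

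The summed oligodendrocyte UMIs were 9681037 in gray matter and 21803405 to 41220782 in white matter, and the median oligodendrocyte of gray matter had 8821 UMIs, against 8669, 12925.5 and 10005 UMIs in white matter libraries 1, 2 and 3. Markers of oligodendrocytes summed to 48697 CPM (UMIs scaled to the library's total, with TMM scaling for single genes, and without it in sums of cell type markers, within the authors' small clusters and over cells of all types) in gray matter and 53554 to 54404 in white matter, and *Cd3d*, *Trac*, *Cd2* and *Cd28*, markers of T cells, had no UMI in oligodendrocytes of any of the 4 libraries (*Cd8a* is not listed for *Rag1*-/- cells, so it has no measured value). The T cell markers summed to 0.310 CPM in gray and 0.358 to 0.459 CPM in white matter oligodendrocytes. Over cells of all types, the summed CD3 subunits of the T cell receptor complex, *Cd3d*, *Cd3e* and *Cd3g*, were at 1.43 CPM in *Rag1*-/- gray matter and 0.205 to 6.75 CPM in *Rag1*-/- white matter, against 16.6 and 26.0 CPM in wild-type gray matter and 136 and 115 CPM in wild-type white matter. *Rag1* itself had 11 UMIs in gray matter and 62, 52 and 77 UMIs in white matter oligodendrocytes of mice labelled *Rag1*-/-, against 0 and 2 UMIs in gray and 0 and 23 UMIs in white matter of wild-type mice. Over cells of all types *Rag1* was at 1.43 to 2.20 CPM in the libraries labelled *Rag1*-/- and at 0 to 0.419 CPM in wild type, so it was higher in each library labelled as the knockout. Tags of the end of the transcript need not lie in the deleted part, so these UMIs do not check the label. At most 5 cell barcodes were shared between any 2 of the libraries.

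Between the tissues, 38 genes were higher and 19 were lower in *Rag1*-/- white matter oligodendrocytes at an adjusted p of 0.05 (edgeR quasi-likelihood test, Benjamini-Hochberg), which is 0.291% and 0.145% of the 13069 genes tested. Genes of STAT3 signaling and complement (*Socs3*, *Stat3*, *Bcl3*, *Serpina3n* and *C4b*) and markers of a mature oligodendrocyte subtype (*Hopx*, *S100b*, *Nkx2-9* and *Cdkn1c*) were among the higher ones. Glutamate handling (*Grm7* and *Glul*), an ion channel (*Hcn2*), the metalloproteinase inhibitor *Timp3* and the endothelin-converting enzyme *Ece1* were among the lower ones. In all 57 genes (0.436%) every white matter library lay on the same side of the gray matter library, as did 32.8% of all tested genes above and 28.9% below it. Within batch 1, white matter library 1 and the gray matter library came from the same mice. Both were already compared above, so it adds no support that all 57 kept their direction there, as did 76.5% of all tested genes. In that pair, 37 of the 38 higher and 14 of the 19 lower genes differed at least 2-fold. The share of all tested genes that did so was not counted. Because gray matter had 1 library, the test borrowed its spread from the other groups, and a permutation of 3 libraries against 1 could not give an exact p under 0.25 (one-sided) or 0.5 (two-sided). The number of genes called rested on single libraries, with 251, 15 and 22 genes without white matter libraries 1, 2 and 3, with 35 and 82 genes without wild-type gray matter library 2 and wild-type white matter library 1, and with 473 genes, all 57 among them, with batch within genotype as a replicate block, where the tissue difference rests on the pair of libraries of batch 1. Over 10 alternatives with a test, 10 of the 57 genes stayed called in all (*C4b*, *Serpina3n*, *Hopx*, *Junb*, *Ldlrad4*, *Nol3*, *Piezo2*, *Grm7*, *Ptpn13* and 1 predicted gene model), and 46 lost their call without white matter library 2 or 3. *Stat3*, *Glul* and *Pex5l* were among those that did, and were also lost without wild-type gray matter library 1 or 2 and with the 4 *Rag1*-/- libraries alone.

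**Figure D1:**
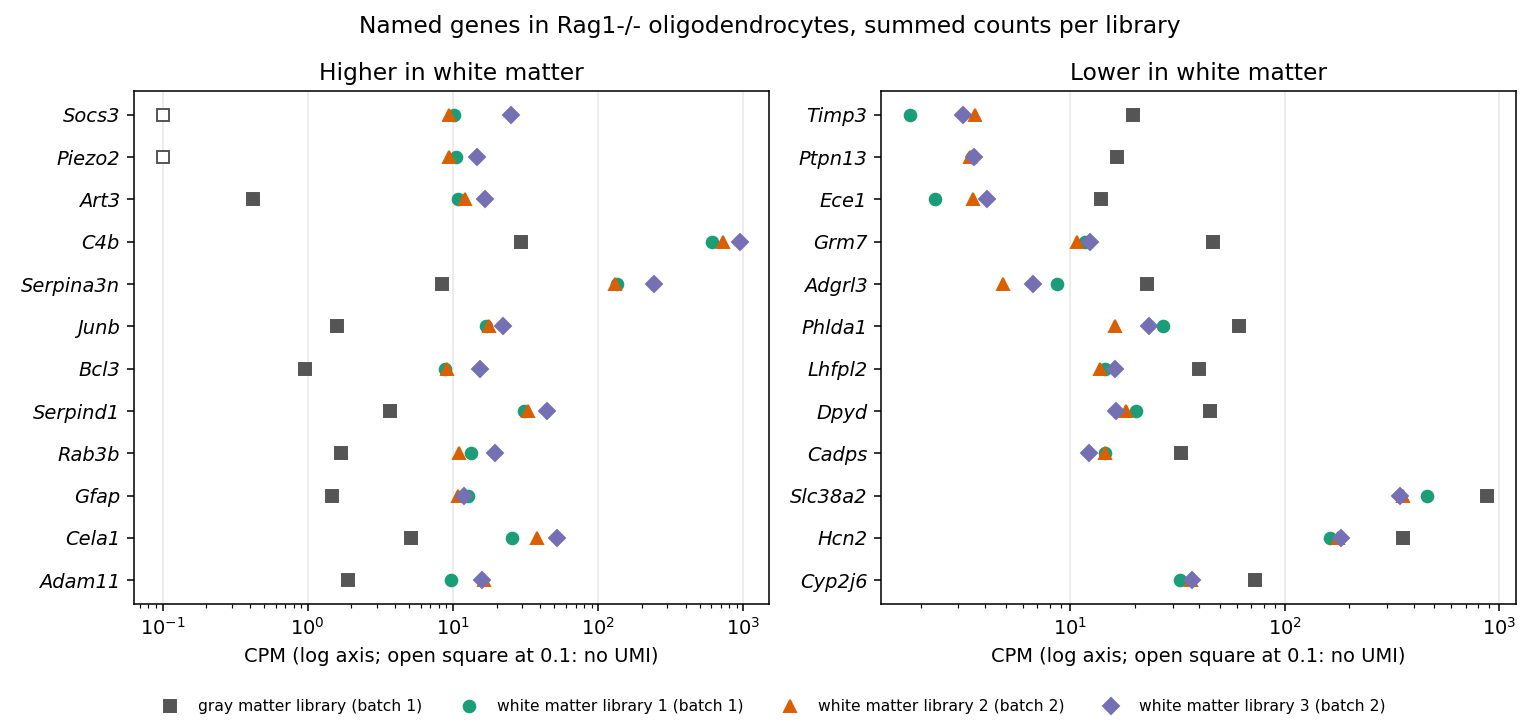
Level of the 24 named genes (CPM, log axis, open squares at the left edge for no UMI) in oligodendrocytes of the Rag1-/- gray matter library and the 3 white matter libraries, each point 1 library. In each of the 12 higher genes all white matter points lie right of the gray matter point, and in each of the 12 lower genes all lie left of it, which the rule that named the genes required.

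Among the genes of gp130 and STAT3 signaling, 4 of 16 tested were called higher (*Socs3*, *Bcl3*, *Stat3* and *Serpina3n*) and none was called lower. Of all genes tested, 0.291% were called higher and 0.145% lower. *Serpina3n* alone stayed called without white matter library 2, without wild-type gray matter library 1 or 2 and with the 4 *Rag1*-/- libraries alone. The median log2 fold change (log2FC, white over gray matter, given ± its SE where it is of 1 gene) over the 16 was 0.50, or 0.04 with genes at 0 in gray matter set to their bound, against 0.02 over all genes tested. *Stat3*, the transcription factor of this pathway, was at 38.2 CPM in gray matter and at 83.9, 76.7 and 92.7 CPM in white matter libraries 1, 2 and 3. Each white matter library was at 2 or more times the gray matter level, and the log2FC was 1.14 ± 0.16 (adjusted p = 0.0268, or 0.0564 and 0.0750 without white matter libraries 2 and 3). *Socs3*, the feedback inhibitor that STAT3 induces, had no UMI in gray matter and was at 10.2, 9.34 and 25.1 CPM in white matter. Against a floor of 3 UMIs in the gray matter library, this is at least 46.9-fold higher (adjusted p = 0.0454), a call that was lost without white matter library 2 (adjusted p = 0.0521), without wild-type gray matter library 1 or 2 (0.0883 and 0.0935) and with the 4 *Rag1*-/- libraries alone (0.0989).

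*Serpina3n*, a secreted inhibitor of serine proteases and a target of STAT3, was at 8.45 CPM in gray matter and at 135, 130 and 243 CPM in white matter. Gray and white matter libraries were far apart for *Serpina3n*, for a log2FC of 4.33 ± 0.47 (adjusted p = 0.0161) that stayed called under all 10 alternatives, at adjusted p-values up to 0.0305. *Bcl3*, a nuclear partner of NF-κB proteins, was at 0.951 CPM in gray matter and at 8.86, 9.05 and 15.4 CPM in white matter, for a log2FC of 3.55 ± 0.57 (adjusted p = 0.0400, or 0.0632 without white matter library 2). Upstream, the shared receptor chain *Il6st* was at 47.9 CPM in gray matter and at 45.6, 53.7 and 51.7 CPM in white matter, and the kinase *Jak1* was at 65.4 CPM and at 62.1, 65.9 and 69.1 CPM. For both genes the gray matter value lay within the range of the white matter libraries, and the log2FCs were 0.07 and 0.01. *Cebpd*, another transcription factor of the acute phase, was at 21.4 CPM in gray matter and 63.9, 54.0 and 80.4 CPM in white matter without passing the edgeR test (adjusted p = 0.0936), though DESeq2 called it.

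The region before the start of *Socs3* is shown for the motif that STAT factors are known to bind, TTCNNNGAA, searched on both strands in windows of 250 bases before to 50 after each RefSeq start (GRCm38.p6). Of 27025 genes with such a window 9.55% held it. The bases shown lie at chr11:117969467-117969616, on the minus strand, before the start of the coding transcript and inside an intron of a longer noncoding *Socs3* transcript, and the capitals mark the match, 154 bases before the start.
Socs3: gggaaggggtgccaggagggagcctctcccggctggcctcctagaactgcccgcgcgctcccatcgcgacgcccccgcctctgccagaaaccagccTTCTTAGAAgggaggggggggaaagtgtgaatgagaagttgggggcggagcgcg
A match also lay in the window of *Tnfrsf1a*, and 2 of the 15 matched members of the list held one. Of the 38 genes called higher, 26 had a promoter in the table and 4 of them held the motif (*Socs3*, *Gfap*, *Tspan9* and *Cyp2j12*), and of the 15 matched genes called lower none did. A match is a run of letters and not a measured binding site.

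*C4b*, a complement component of the classical pathway, had the lowest adjusted p of all genes tested. Its level was 29.6 CPM in gray matter and 606, 724 and 944 CPM in white matter libraries 1, 2 and 3. The tissues were separated by over an order of magnitude, for a log2FC of 4.68 ± 0.34 (adjusted p = 0.00355), and the log2 difference within batch 1 was 4.35. Of the 10 complement genes tested *C4b* was the sole one called, and the median log2FC over them was -0.12. *C1qa*, *C1qb* and *C1qc*, which microglia are known to make, were at 85.9, 70.2 and 33.4 CPM in gray matter and between 10.8 and 77.2 CPM in white matter. *C4b* has a near-identical copy in the mouse genome, *C4a*, which was not among the genes tested, so reads of the pair may be counted as *C4b*. On GRCm38.p6, *C4b* lies on chromosome 17 at 34728139 to 34743902.

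*Junb*, a subunit of the AP-1 transcription factor, was at 1.58 CPM in gray matter and at 16.8, 17.7 and 22.3 CPM in white matter, for a log2FC of 3.57 ± 0.42 (adjusted p = 0.0197). It was the sole gene called of 18 immediate early genes, whose median log2FC was 0.01. *Fos*, its partner, was at 0.845 CPM in gray matter and at 20.5, 12.7 and 23.8 CPM in white matter and did not pass the test (adjusted p = 0.0561). *Jun* was at 202 CPM in gray matter and at 208, 124 and 194 CPM in white matter, so that the tissues overlapped.

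Other genes were at or near 0 in gray matter. *Piezo2*, a channel opened by mechanical force, had no UMI in gray matter and was at 10.4, 9.34 and 14.7 CPM in white matter, which is at least 36.3-fold higher against the floor of 3 UMIs (adjusted p = 0.0233). *Art3*, a member of the ADP-ribosyltransferase family, was at 0.423 CPM in gray matter and at 10.8, 12.2 and 16.7 CPM in white matter (log2FC 4.95 ± 0.72, adjusted p = 0.0279). Every white matter library exceeded gray matter for both genes, which the rule that named them required. *Gfap*, the intermediate filament of astrocytes, was at 1.48 CPM in gray matter and at 12.8, 10.9 and 12 CPM in white matter oligodendrocytes (log2FC 3.0, adjusted p = 0.0216). The other 15 of 16 astrocyte markers were not called (9 of the 16 were with the replicate block, and none without white matter library 2 or 3). The whole list summed to 740 CPM in gray matter and 487 to 553 CPM in white matter. The part of astrocyte RNA in the *Gfap* values was not tested.

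Further named genes encode secreted or membrane proteins and a GTPase. *Serpind1*, which encodes the thrombin inhibitor heparin cofactor II, was at 3.70 CPM in gray matter and at 30.6, 33.1 and 44.3 CPM in white matter (log2FC 3.28). *Rab3b*, a small GTPase of regulated secretion, was at 1.69 CPM and at 13.2, 11.1 and 19.5 CPM (3.11). *Cela1*, an elastase, and *Adam11*, a membrane protein of the metalloprotease-disintegrin family, had log2FCs of 2.90 and 2.86. Adjusted p-values of these 4 genes were between 0.0203 and 0.0338, and leaving out 1 white matter library at a time took away the call of *Serpind1*, *Cela1* and *Adam11* without library 2, and of *Adam11* without library 3. *Rab3b*, *Cela1* and *Adam11* were also lost without wild-type gray matter library 1 or 2 and with the 4 *Rag1*-/- libraries alone.

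Of 25 markers of mature oligodendrocyte subtypes, 4 were called higher and none lower, with a median log2FC of 0.33. Of all genes tested, 0.291% were called higher. *Hopx* was the sole one called without white matter library 2 or 3 or wild-type gray matter library 2, and 8 were called without white matter library 1. *Hopx*, which encodes a small homeodomain protein, was at 104 CPM in gray matter and at 351, 449 and 461 CPM in white matter, for a log2FC of 2.02 ± 0.19 (adjusted p = 0.0101). *S100b*, a calcium-binding protein, was at 138 CPM in gray matter and at 430, 558 and 660 CPM in white matter (adjusted p = 0.0361, or 0.0933 without white matter library 2). *Nkx2-9*, a homeobox transcription factor, and *Cdkn1c*, an inhibitor of cyclin-dependent kinases, had log2FCs of 1.98 and 1.82. In all 4 genes the lowest white matter library was at over 2 times the gray matter level. *Ptgds*, the prostaglandin D synthase, went the other way at 13086 CPM in gray matter and 5939, 6420 and 5886 CPM in white matter without passing the test (adjusted p = 0.410), and *Il33*, a nuclear cytokine, was at 1399 CPM and at 1575, 1318 and 1275 CPM.

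The lists that the study drew from its own plate-based wild-type cells, and not from these libraries, extend the comparison to more genes. Of 49 tested markers of the cluster Oligo2, 7 were called higher, none lower, and 45 had all white matter libraries above gray matter, at a median log2FC of 0.93. Over all genes tested, 0.291% were called higher and 0.145% lower. All white matter libraries lay above gray matter in 32.8% of all genes tested and below it in 28.9%. Without white matter libraries 1, 2 and 3 the Oligo2 markers called numbered 22, 0 and 1, and without wild-type gray matter library 2 and wild-type white matter library 1 they numbered 4 and 12. All 14 markers of Oligo1 had all white matter libraries below gray matter, at a median of -0.96, with 2 called lower (*Ptpn13* and *Nudt4*), of which *Ptpn13* alone stayed called without white matter library 2 or 3 or wild-type gray matter library 1 or 2. Of 94 markers of age-related oligodendrocytes (AROs), 15 were called higher, none lower, and 78 had all white matter libraries above gray matter, at a median of 1.06, with 8 called without white matter library 2. With the replicate block 31, 10 and 42 markers of Oligo2, Oligo1 and AROs were called. These counts describe which cells each library held as well as levels within cells.

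Of called genes at 10 CPM or more, *Timp3*, an inhibitor of matrix metalloproteinases, fell most, from 19.5 CPM in gray matter to 1.78, 3.59 and 3.14 CPM in white matter (log2FC -2.79 ± 0.35, adjusted p = 0.0203). *Ptpn13*, a tyrosine phosphatase, was at 16.6 CPM in gray matter and at 3.49, 3.40 and 3.55 CPM in white matter (log2FC -2.25 ± 0.21, adjusted p = 0.0101). The 3 white matter libraries differed from one another far less than from gray matter in *Ptpn13*, and its call stayed under all 10 alternatives. *Ece1*, the enzyme that makes active endothelins, was at 13.9 CPM in gray matter and at 2.33, 3.50 and 4.06 CPM in white matter (log2FC -2.07).

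Of 17 genes for receptors, transporters and synthesis of neurotransmitters, 2 were called lower and none higher, 11 had all white matter libraries below gray matter, and the median log2FC was -0.39. Of all genes tested, 0.145% were called lower and 28.9% had all white matter libraries below gray matter. *Grm7*, a metabotropic glutamate receptor, was at 46.3 CPM in gray matter and at 11.7, 10.7 and 12.3 CPM in white matter (SE of the log2FC 0.20, adjusted p = 0.0106). *Glul*, glutamine synthetase, was at 3603 CPM in gray matter and at 2050, 1962 and 1676 CPM in white matter (log2FC -0.93, adjusted p = 0.0370, or 0.103 and 0.0803 without white matter libraries 2 and 3). The ranges of the tissues did not meet for either gene. The AMPA receptor subunits differed in opposite directions without passing the edgeR test, though DESeq2 called both, with *Gria2* at 15 CPM in gray and 2.47, 6.28 and 4.85 CPM in white matter, and *Gria4* at 17.5 CPM in gray and 54.5, 37.0 and 33.7 CPM in white matter. *Slc1a2*, a glutamate transporter that astrocytes express strongly, was at 117 CPM in gray and 13.0, 42.2 and 53.8 CPM in white matter (adjusted p = 0.296), beside the higher sum of astrocyte markers in gray matter. The part of astrocyte RNA in these values was not tested.

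*Hcn2*, a channel opened by hyperpolarization, fell from 358 CPM to 162, 177 and 182 CPM (log2FC -1.04 ± 0.12, adjusted p = 0.0197, or 0.0539 without white matter library 2), and *Pex5l*, which encodes a protein that binds HCN channels, fell from 1501 CPM to 918, 894 and 830 CPM (log2FC -0.77 ± 0.11, adjusted p = 0.0268, or 0.0852 and 0.0733 without white matter libraries 2 and 3). Of 13 channel genes tested, *Piezo2* was called higher and *Hcn2* lower, and the median log2FC was -0.18. *Slc38a2*, a transporter of neutral amino acids, fell from 880 CPM to 460, 355 and 344 CPM (log2FC -1.19), a call lost without white matter library 2 or 3. *Adgrl3*, an adhesion receptor of synapses, *Cadps*, which primes secretory vesicles, and *Dpyd*, an enzyme of pyrimidine breakdown, had log2FCs of -1.75, -1.25 and -1.30. *Phlda1*, *Lhfpl2* and *Cyp2j6* fell by 1.46, 1.43 and 1.04 on the log2 scale. *Cyp2j6* has close relatives, among them *Cyp2j12*, which was called higher (log2FC 0.81), so the split of reads between the pair is uncertain. *Camk2a*, a kinase of excitatory neurons, was also called lower, at 3.80 CPM in gray and 0.0727 to 0.240 CPM in white matter, a call lost without white matter library 2 or 3 (adjusted p = 0.127 and 0.135). Of 14 neuron markers tested, 8 had all white matter libraries below gray matter, against 28.9% of all genes tested, at a median log2FC of -0.51. DESeq2 called *Camk2a* and *Snap25* lower and *Olfm1* higher. The sum of the whole list was 118 CPM in gray and 131 to 149 CPM in white matter, and *Olfm1* alone was at 55.5 CPM and 84.0 to 85.2 CPM. The part of neuronal RNA in these values was not tested.

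None of 27 type I interferon-stimulated genes passed the edgeR test, whereas 4 had an unadjusted p under 0.05, as did 9.64% of all genes tested, and DESeq2 called 2 (*Ifi27* and *Ifi27l2a*), as many as edgeR did without white matter library 1, against 4 with the replicate block. Their median log2FC was 0.54, or 0.48 with the gene at 0 in gray matter at its bound. *Ifi27l2a* had the largest difference of those over 10 CPM, with 1.06 CPM in gray matter and 23.1, 8.91 and 19.9 CPM in white matter (log2FC 4.04, adjusted p = 0.0558). All white matter libraries lay above gray matter. *Ifit3* was at 0.317 CPM in gray matter and at 0.981, 0.431 and 1.84 CPM in white matter (adjusted p = 0.639).

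Of 12 interferon-gamma-induced genes and 21 genes of MHC class I presentation none was called by edgeR, with median log2FCs of 0.13 and 0.07. At an unadjusted p under 0.05 there were 1 and 2 of them, and DESeq2 called *H2-D1* alone. *H2-D1*, an MHC class I heavy chain, was at 58.6 CPM in gray matter and 123, 124 and 151 CPM in white matter (adjusted p = 0.252), and *B2m*, the light chain, was at 23.9 CPM and at 57.8, 65.6 and 84.7 CPM (adjusted p = 0.315). *H2-K1* had a log2FC of 0.10 (adjusted p = 0.942). The white matter libraries were above gray matter for *H2-D1* and *B2m* without either passing the test. Classical heavy chains share sequence, so reads may be split between *H2-D1* and *H2-K1*.

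The interferon-stimulated response element (ISRE) is shown before the *Ifit3* start that the promoter table uses, where 2 matches are in capitals, 156 and 122 bases before that start, at chr19:34583279-34583428 on the plus strand of GRCm38.p6. These bases lie before the GENCODE transcript of *Ifit3* but inside the span that RefSeq gives the gene, which begins further upstream. Of 27025 genes 3.99% held this motif in a window on either strand.
Ifit3: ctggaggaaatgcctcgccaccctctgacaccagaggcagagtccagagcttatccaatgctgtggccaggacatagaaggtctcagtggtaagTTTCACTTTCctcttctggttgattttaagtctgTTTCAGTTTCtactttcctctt
The motif was held by 12 of the 22 type I interferon-stimulated genes that had a RefSeq promoter, and of 15 interferon-gamma-induced genes 9 did. Of the 26 matched genes called higher in white matter 2 held it, and of the 15 matched genes called lower 3 did (*Glul*, *Ece1* and *Adgrl3*). None of the 15 matched gp130 and STAT3 genes held it. The STAT motif was in 5 of the 22 type I interferon-stimulated genes and 6 of the 15 interferon-gamma-induced genes. The AP-1 motif TGANTCA was in windows of 8.97% of all genes, in 1 of the 26 matched higher genes and in 1 of the 15 matched lower genes.

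Of 30 genes of myelin proteins and lipids none was called by edgeR or DESeq2 and 2 had an unadjusted p under 0.05, at a median log2FC of 0.19. *Mbp* and *Mal*, structural proteins of myelin, had log2FCs of 0.50 and 0.18. The oligodendrocyte lineage transcription factors had 1 of 20 called (*Nkx2-9*) at a median of 0.00, and positional patterning factors none of 12 at -0.15. By edgeR none was called among 23 genes of cholesterol synthesis (median 0.05), 30 of adhesion and contact with axons (-0.11), 18 of the glucocorticoid-type stress response (-0.10), 20 heat shock and chaperone genes (-0.19) and 14 of iron storage and transport (0.06). Unadjusted p-values under 0.05 numbered 3, 8, 1, 0 and 4 in these lists and 5 in the patterning factors, against the 9.64% of all genes tested. DESeq2 called *Tcf7l2* of the patterning factors, *Tenm4* and *Sema4d* of the adhesion genes and *Trf* and *Cp* of the iron genes. *Trf*, which encodes transferrin, was at 5285 CPM in gray matter and at 7510, 7190 and 8057 CPM in white matter (adjusted p = 0.164).

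The authors had named clusters of oligodendrocytes on these same cells, so their sizes are described without a test. AROs were 0 of 1055 oligodendrocytes in gray matter, which allows a share of up to 0.284% by counting error alone, and 12.2% ± 4.61 (SD, n = 3) in white matter, between 6.99% and 15.8%. Interferon-responsive oligodendrocytes (IROs) were also 0 of 1055 in gray matter and 1.06% ± 0.211 (SD, n = 3) in white matter. Oligo1 held 72.2% of gray matter cells and 50.2% ± 5.57 (SD, n = 3) of white matter cells, a difference that lay in its subcluster Oligo1b, with 43.2% in gray matter against 8.56% ± 2.90 (SD, n = 3). Oligo2 held 27.8% in gray matter and 36.5% ± 1.61 (SD, n = 3) in white matter. Within it Oligo2c went from 0.0948% to 6.71% ± 0.464 (SD, n = 3), Oligo2a from 3.60% to 12.4% ± 0.924 (SD, n = 3) and Oligo2b from 24.1% to 17.5% ± 0.546 (SD, n = 3). Of all cells, oligodendrocytes were 27.7% in the gray matter library and 40.0%, 55.4% and 59.2% in the white matter libraries, and as a share of all cells Oligo1 was higher in white matter, by 5.83 percentage points, and Oligo2b by 2.37. Within batch 1 these shares of all cells were nearly the same, at 20.02% in gray and 19.85% in white matter for Oligo1 and at 6.67% and 6.75% for Oligo2b.

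**Figure D2:**
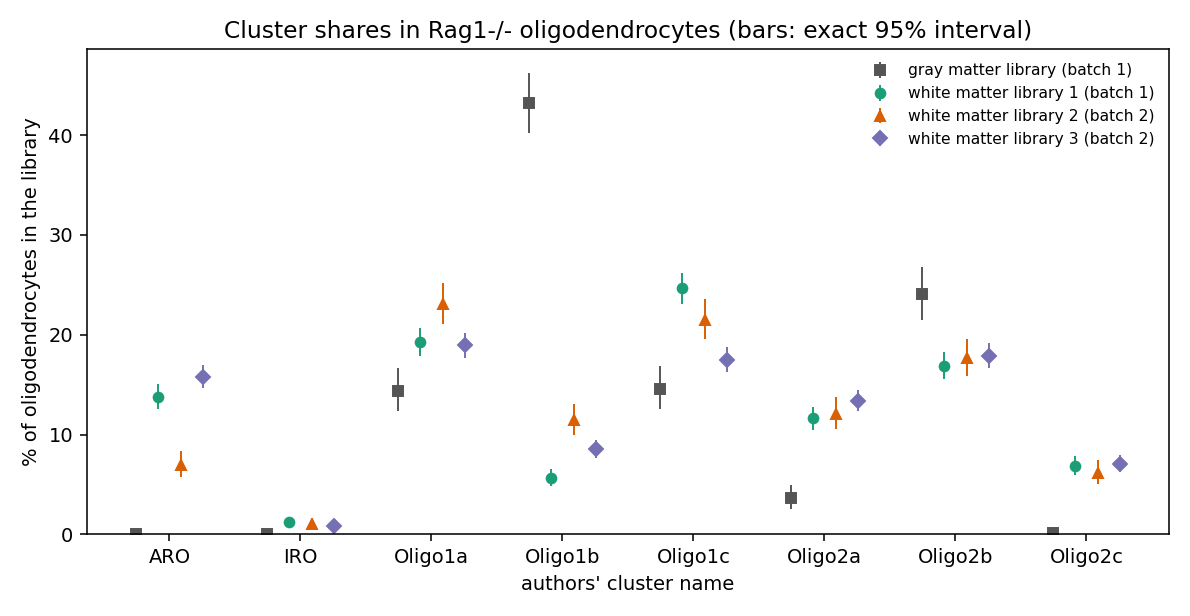
Share of oligodendrocytes in each of the authors' clusters (percent) in the Rag1-/- gray matter library and the 3 white matter libraries, each point 1 library. Oligo1b stands out in gray matter at 43.2%, and AROs, IROs and Oligo2c are at or near 0 there.

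The difference in *C4b* was not limited to AROs. In the 5 subclusters with at least 20 cells in each library, *C4b* was at 50.4 CPM in gray matter and 599 ± 131 CPM (SD, n = 3) in white matter in Oligo1a, at 20.2 against 271 ± 111 CPM in Oligo1b, at 39.6 against 589 ± 65.0 CPM in Oligo1c, at 47.7 against 503 ± 96.4 CPM in Oligo2a and at 24.0 against 392 ± 81.5 CPM in Oligo2b. Each white matter library lay above gray matter in each of these subclusters. In AROs, found in white matter alone, *C4b* was at 1227, 1645 and 1838 CPM, and in Oligo2c at 1294, 1865 and 1945 CPM. *Serpina3n* was at 2.52 CPM in gray and 63.5 ± 16.2 CPM (SD, n = 3) in white matter in Oligo1a, and at 9.84 against 45.5 ± 4.74 CPM in Oligo2b, with 468, 652 and 777 CPM in AROs. *Socs3* was at 64.0, 77.1 and 110 CPM in AROs, which held 233 of 280, 115 of 195 and 720 of 981 of its UMIs in white matter libraries 1, 2 and 3, and was at most at 24.0 CPM in any other cluster. Of the 24 named genes, 7 of the 12 higher and 8 of the 12 lower had all white matter libraries on the same side of gray matter in all 5 subclusters. The naming rule had required this over all oligodendrocytes, and the share of all genes was not counted. *Art3* met it in 1 of the 5 subclusters, and *Junb* and *Bcl3* in 3. In Oligo2a *Bcl3* was at 1.83 CPM in gray and 0 to 1.06 CPM in white matter. The gray matter value rests on 38 cells and is near the counting floor, so no direction is read from it.

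**Figure D3:**
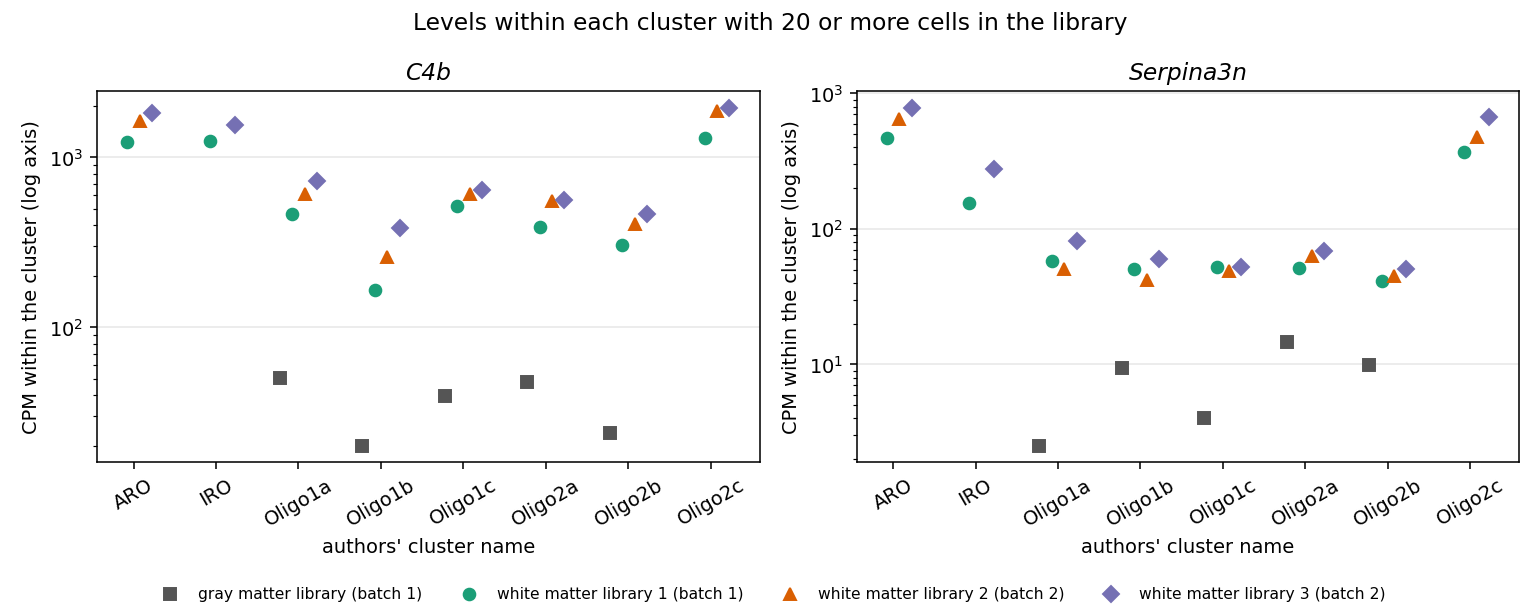
Level of C4b and Serpina3n (CPM, log axis) within each cluster named by the authors, for each Rag1-/- library with at least 20 cells in it. The gray matter point lies below every white matter point in the 5 subclusters where both tissues are shown, and ARO, IRO and Oligo2c levels of a white matter library lie above its levels in those 5.

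The cells of 1 cluster were also summed per library. In Oligo1 cells 10 genes were higher and 7 lower (edgeR, 0.0816% and 0.0571% of 12258 genes). *C4b* was at 30.1 CPM in gray matter and at 455, 551 and 653 CPM in white matter Oligo1 cells (log2FC 4.20), and *Serpina3n* was at 7.34 CPM and at 55.3, 50.1 and 69.4 CPM (2.99). *Gfap*, *Nol3*, which encodes an inhibitor of apoptosis, and *Hopx* had log2FCs of 3.64, 1.89 and 1.82. *Timp3*, *Ptpn13*, *Grm7*, *Nav3* and *Adgrl3* fell by 2.57, 2.36, 1.81, 1.51 and 1.47 on the log2 scale. Most gray matter Oligo1 cells were Oligo1b, against a minority in white matter, and in Oligo1b alone *Grm7* was at 54.3 CPM in gray and 26.5 ± 4.18 CPM (SD, n = 3) in white matter and *Adgrl3* at 29.8 and 15.3 ± 6.62 CPM (SD, n = 3). Of the genes called in all oligodendrocytes, 10 of 38 higher and 6 of 19 lower were also called in Oligo1 cells. Without white matter libraries 1, 2 and 3 the calls in Oligo1 cells numbered 37, 8 and 10, and with the replicate block 233.

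In Oligo2 cells 60 genes were higher and 58 lower (edgeR, 0.512% and 0.495% of 11716 genes), and 26 of the 38 higher and 15 of the 19 lower genes were called again. *C4b* was at 28.8 CPM in gray and at 539, 750 and 830 CPM in white matter (log2FC 4.62). *Klk6*, a secreted protease of mature oligodendrocytes, was at 119 CPM in gray matter and at 447, 472 and 673 CPM in white matter (2.16). Its level differed more between subclusters, at 543 CPM in gray and 774, 795 and 999.8 CPM in white matter in Oligo2a and at 24.4 CPM and 64.8, 74.4 and 95.3 CPM in Oligo2b, and gray matter Oligo2 cells were mostly Oligo2b. Of 24 type I interferon-stimulated genes tested in Oligo2 cells 2 were called, with *Ifi27l2a* at 0.662 CPM in gray and 35.1, 15.2 and 31.2 CPM in white matter (log2FC 5.34, adjusted p = 0.0159) and *Ifi27* with a log2FC of 1.14. *Ifi27l2a* was at 0 CPM in gray and 26.0 to 30.7 CPM in white matter in Oligo2a, and at 0.787 CPM and 1.44 to 4.98 CPM in Oligo2b. The gray matter value in Oligo2a rests on 38 cells. *H2-D1* was at 46.4 CPM in gray and 126, 142 and 156 CPM in white matter Oligo2 cells (log2FC 1.61, adjusted p = 0.0402). Among the lower genes *Kcnma1*, a calcium-activated potassium channel, was at 38.7 CPM in gray and at 5.23, 1.55 and 2.20 CPM in white matter, and *Ptgds* fell from 4926 CPM to 1424, 1274 and 1276 CPM. Without white matter libraries 1, 2 and 3 the calls in Oligo2 cells numbered 393, 63 and 64, without wild-type gray matter libraries 1 and 2 they numbered 73 and 70, with the 4 *Rag1*-/- libraries alone 69, and with the replicate block 442. The clusters were drawn on the same genes, so levels within them depend on where the authors set their bounds.

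Hemoglobin genes were also called lower in Oligo2 cells, with *Hbb-bt* and *Hbb-bs* at log2FCs of -4.09 and -3.56. In all oligodendrocytes the 5 blood genes summed to 605 CPM in gray matter and 42.9 to 86.2 CPM in white matter, each was lower in every white matter library, and all 5 had an unadjusted p under 0.05 but none was called by edgeR or DESeq2. Without wild-type gray matter libraries 1 and 2 edgeR called 4 and 3 of them, and with the 4 *Rag1*-/- libraries alone or with the replicate block it called 4. Wild-type gray matter libraries held 0 and 1306 CPM of the same genes, so the spread between those 2 libraries exceeded the difference between the *Rag1*-/- tissues. Hemoglobin genes share sequence, and the part of free red cell RNA in these values was not tested. Microglia markers, 16 genes, summed to 587 CPM in gray and 303 to 541 CPM in white matter oligodendrocytes, endothelial markers, 12 genes, to 297 and 221 to 246 CPM, and choroid plexus and ependyma markers, 10 genes, to 2074 and 1786 to 2282 CPM. Most of the endothelial sum was *Bsg*. The 5 tested endothelial markers had a median log2FC of 1.21 (3 higher and 2 lower, none called), or -0.24 within batch 1. Nearly all of the choroid plexus and ependyma sum was *Enpp2*, and the other tested members, *Ttr* and *Foxj1*, were at 8.03 and 9.19 CPM in gray matter and at 18.5 to 32.9 and 19.0 to 32.0 CPM in white matter, not called by edgeR but called by DESeq2.

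The share of cells with a transcript was compared after thinning each cell to 6400 UMIs, which left 942 gray matter and 2614, 1585 and 3553 white matter oligodendrocytes. *C4b* was detected in 12.7% of gray matter and in 75.6%, 75% and 81.0% of white matter oligodendrocytes. In microglia of the same libraries, thinned alike, the shares were 0.696% and 3.48%, 7.49% and 14.1%. *Serpina3n* was detected in 4.25% of gray matter and in 35.1%, 29.0% and 39.5% of white matter oligodendrocytes, against at most 3.52% of microglia. For both genes the shares in oligodendrocytes exceeded those in microglia of the same library in both tissues.

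*Socs3* was detected in 0 of 942 gray matter cells, which allows a share of up to 0.318% of cells with a UMI (not of cells expressing the gene), and in 4.28%, 3.85% and 9.71% of white matter cells. Microglia held *Socs3* at 4.87% in gray matter and at 5.33%, 4.81% and 7.03% in white matter, so in white matter libraries 1 and 2 the oligodendrocyte share was below that of microglia, whereas in gray matter, where microglia held it at a like share, it was detected in no oligodendrocyte. *Piezo2* was detected in no gray matter cell and in 4.78%, 3.66% and 5.52% of white matter oligodendrocytes, against at most 0.195% of microglia. Of the lower genes, *Timp3* was detected in 9.45% of gray matter and in 0.689%, 1.77% and 1.83% of white matter cells, and *Ptpn13* in 7.86% and in 2.07%, 1.64% and 1.86%. *Ptgds* was detected in 98.6% of gray and 89.3% to 91.1% of white matter cells, but also in 22.2% to 50.2% of microglia. *Ifit3* was detected in 0.212% of gray and 0.126% to 0.574% of white matter oligodendrocytes, below the 3.71% to 7.22% of microglia.

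**Figure D4:**
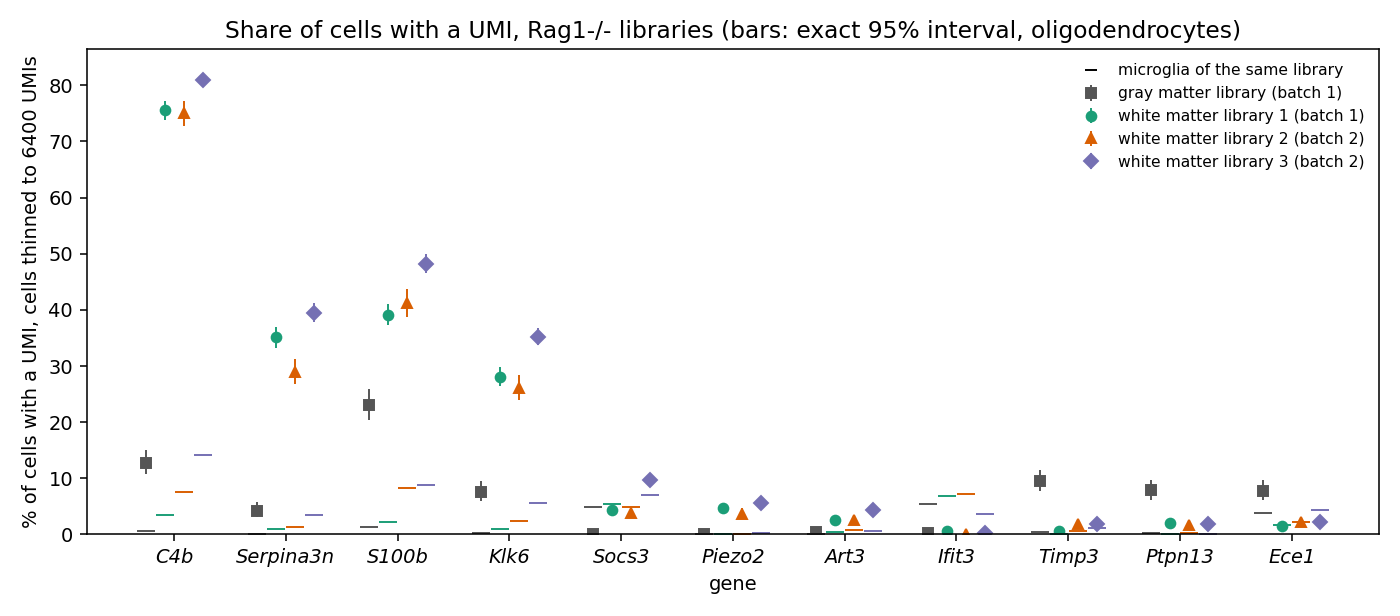
Share of oligodendrocytes (percent) with at least 1 UMI of each gene after thinning every cell to 6400 UMIs, in the Rag1-/- gray matter library and the 3 white matter libraries, each point 1 library. C4b rises from 12.7% in gray matter to between 75% and 81.0% in white matter, whereas Timp3 goes from 9.45% to at most 1.83%.

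The tissue difference itself was compared between genotypes. In wild-type oligodendrocytes all 57 genes had the same direction as in *Rag1*-/- oligodendrocytes, as did 64.3% of all tested genes, and 33 of the 38 higher and 13 of the 19 lower genes were called there too, which is 34.0% and 38.2% of the genes called in wild type. *C4b* had a log2FC of 4.68 in *Rag1*-/- and 3.74 in wild-type mice, *Serpina3n* of 4.33 and 4.59, and *Stat3* of 1.14 and 1.33. These are the values of 2 groups of mice that share no library. Both contrasts came from the same fit with a shared spread per gene, so calls in the genotypes are not independent. The difference between the genotypes' tissue differences was called for none of the 13069 genes (0.0%) by edgeR, with 236 genes at an unadjusted p under 0.05 and 3 called by DESeq2 (*Hbb-bt* higher, *Ptp4a1* and *Ttr* lower). Without white matter library 1, edgeR called 4 genes, without wild-type gray matter library 1 it called 2, and with the replicate block it called 6, of which 4 were hemoglobin genes.

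**Figure D5:**
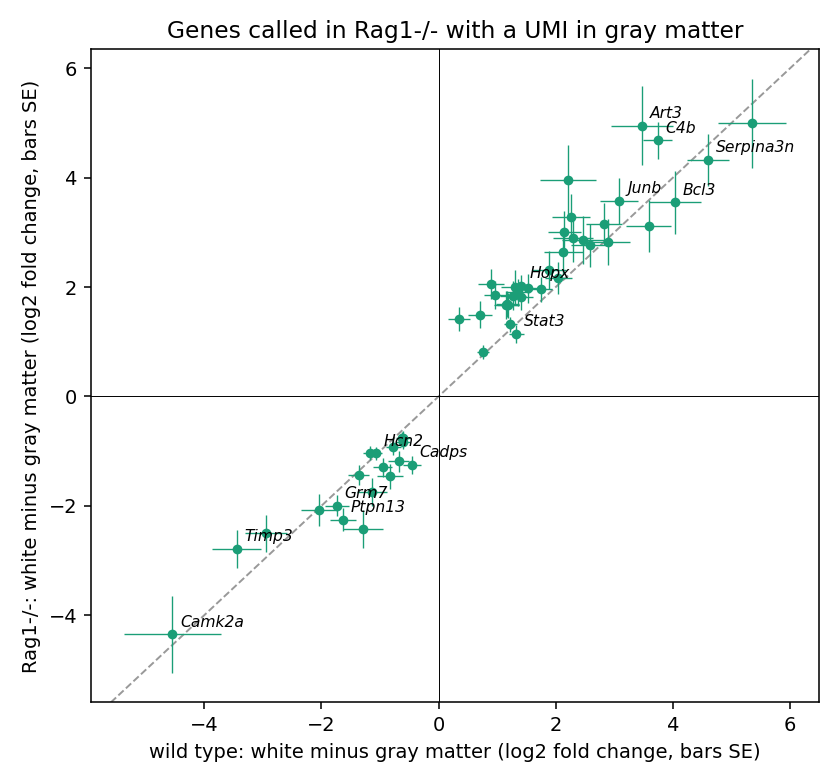
Log2 fold change between white and gray matter in Rag1-/- (vertical) against wild-type oligodendrocytes (horizontal) for the 54 called genes with a UMI in Rag1-/- gray matter, each point 1 gene, with a dashed line where both are equal. All 54 points, chosen by their Rag1-/- values, have the same sign on both axes.

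Medians of the gene lists are set side by side for the genotypes. The 27 type I interferon-stimulated genes had a median log2FC of 0.54 in *Rag1*-/- and of 1.70 in wild-type oligodendrocytes, where 6 were called higher. They summed to 326 CPM in gray and 438, 441 and 502 CPM in white matter of *Rag1*-/- mice. In wild type they summed to 359 and 355 CPM in gray and 680 and 568 CPM in white matter, a smaller difference than the wild-type median. In wild type 0.742% of all genes tested were called higher and 0.260% lower, more than in *Rag1*-/- oligodendrocytes. The wild-type contrast had 2 libraries against 2, and the *Rag1*-/- contrast had 3 against 1. The SE of the *C4b* log2FC was 0.24 in wild-type and 0.34 in *Rag1*-/- oligodendrocytes. Numbers of calls therefore do not compare the sizes of the tissue differences. Medians of interferon-gamma-induced genes were 0.13 and 2.63, and those of MHC class I presentation genes were 0.07 and 0.83, with 0 of 12 and 2 of 21 called in wild type. The 12 interferon-gamma-induced genes summed to 36.6 and 38.3 CPM in wild-type gray and 122 and 65.2 CPM in wild-type white matter, a smaller difference than their median. Markers of IROs had a median of 0.48 in *Rag1*-/- and 2.22 in wild-type oligodendrocytes, with none of 27 against 7 called by edgeR. DESeq2 called 3 of them in *Rag1*-/- oligodendrocytes (*H2-D1*, *Ifi27l2a* and *Ifi27*). The IRO markers summed to 294 CPM in gray and 504, 476 and 590 CPM in white matter of *Rag1*-/- mice. In wild type they summed to 433 and 362 CPM in gray and 1441 and 859 CPM in white matter, a smaller difference than the wild-type median. For gp130 and STAT3 genes the medians were 0.50 and 0.78 (0.04 and 0.59 with genes at 0 in gray matter at their bound), with 4 and 5 called, and for ARO markers 1.06 and 1.35, with 15 and 40 called. No test of these differences between lists was made, and genotype cannot be told apart from the experiment, the version of the counting software and any difference in strain background. In oligodendrocytes of wild-type white matter libraries 1 and 2, B cell markers summed to 126 and 0.339 CPM. T cell markers summed there to 11.7 and 3.12 CPM, and microglia markers to 1117 and 256 CPM. In wild-type gray matter libraries 1 and 2 these sums were 11.98 and 1.74, 2.90 and 0.395, and 1571 and 297 CPM. *Rag1*-/- white matter oligodendrocytes held 0.596 to 1.82 CPM of the B cell markers. The part of immune cell RNA in the list values was not tested.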

How the data were processed

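The authors deposited UMI counts per gene and cell, whole numbers without normalization, made with Cell Ranger on mm10 (per the study's methods, another release in each Rag1-/- batch and in wild type, whereas the submitters' processing notes name Cell Ranger 4). Cells had passed limits on UMIs, which differed between Rag1-/- batches, and the authors had dropped a small Rag1-/- cluster rich in microglial markers. The sources used here name no doublet caller, and none was run. Genes listed in 1 genotype alone were left out, leaving 17001. The deposited table of microglia names 4 libraries from elsewhere, and no step read them.

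Counts were summed per library over the oligodendrocytes, or over Oligo1 or Oligo2 cells. All 8 libraries were fitted in edgeR 4.0.16 (R 4.3.3) as 4 groups of tissue and genotype with filterByExpr, TMM and the quasi-likelihood F test, the lone gray matter library being assumed to vary like the others. Genes at a Benjamini-Hochberg adjusted p of 0.05 over all genes tested were called. CPM values of single genes use TMM-scaled totals of the genes tested, sums of cell type markers and values in AROs, IROs, subclusters and cells of all types use unscaled totals, and medians of lists are of fitted values. Labels give libraries and not always separate mice, so p-values measure the spread between libraries. Gray and white matter libraries of a wild-type pool deviated together (r = 0.428 across 13069 genes, which are not independent). Batch within genotype therefore served as a replicate block in an alternative, where white matter libraries 2 and 3, from different mice, share a block and the tissue difference rests on the pair of batch 1. It raised the calls from 57 to 473. Others were RLE scaling, no filter, Rag1-/- libraries alone, DESeq2 1.42.0 and each library left out except the Rag1-/- gray matter library, without which no comparison remains. The 10 alternatives counted for single genes hold neither DESeq2 nor the fit without a filter. On simulated counts of 12718 genes for the comparison of tissues in all Rag1-/- oligodendrocytes, 72% of genes changed 2-fold and 100% of genes changed 4-fold were called, with 4 false calls. The changed genes were at 10 CPM or more, and counts were drawn from the trend of spread with level. The counts held no batch, no shared pool and no spread of single genes around that trend. These shares therefore do not give the power or the false calls of the real comparison. Python 3.11.15 with pandas 2.3.3 and numpy 2.4.6 was used.

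By rule, the text names 12 called genes per direction with the greatest fold change, at 10 CPM or more in the higher tissue, with all white matter libraries on the same side of gray matter, plus up to 4 members of each list and 5 genes per direction in Oligo1 and Oligo2. Predicted gene models were counted but not named. Other genes were named after their values were seen, and results for 2 genes are not reported here. Members, lists and tests were chosen with earlier results of these data known. Limits for a count of 0 (3 counts) cover counting error alone.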

Additional observations from a re-analysis of the deposited data

How the results depend on the processing

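The gray matter values rest on 1 library and 9681037 UMIs, and the number of calls depended on which libraries gave the estimate of spread, whereas no called gene that the naming rule gives changed direction under these alternatives (H2-K1, which was not called, did without white matter library 1). In all oligodendrocytes, 57 genes were called, 15 to 251 with 1 library left out, 473 with the replicate block, 138 without a filter on low counts and 208 by DESeq2, which shared 56 of the 57. RLE scaling gave 58, the 4 Rag1-/- libraries alone 44, and these with every gene listed for Rag1-/- cells, a setting chosen after seeing the data, 45. In Oligo1 cells, 17 genes were called, 8 to 37 with 1 library left out and 233 with the block. In Oligo2 cells, 118 genes were called, 63 to 393 with 1 library left out, 442 with the block and 69 with the Rag1-/- libraries alone. The difference between genotypes gave 0 calls, 0 to 4 with 1 library left out, 6 with the block and 3 by DESeq2. Over the lists, 29 members were called, 12 to 65 with 1 library left out and 133 with the block. Of the 24 genes named by the rule, 9 to 24 stayed called with 1 library left out and 15 with the Rag1-/- libraries alone, and Piezo2, C4b, Serpina3n, Junb, Ptpn13 and Grm7 stayed called under all 10 alternatives. The cause of these changes was not tested. With all cells of a library as the denominator, white minus gray matter was 6.24 percentage points for AROs, 0.531 for IROs, 11.2 for Oligo2 and -7.42 for Oligo1b, and it reversed for Oligo1 (from -22.0 to 5.83) and Oligo2b (from -6.61 to 2.37), though within batch 1 both were nearly the same in the tissues (20.02% and 19.85%, and 6.67% and 6.75%).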

Other observations

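Several other called genes act in signaling. *Adgrg6*, an adhesion receptor needed for myelination by Schwann cells, was at 1.58 CPM in gray matter and at 9.63, 11.2 and 12.9 CPM in white matter libraries 1, 2 and 3 (edgeR, log2FC 2.83 ± 0.42, adjusted p = 0.0320). *Deptor*, an inhibitor of the kinase mTOR, was at 6.34 CPM and at 24.1, 20.4 and 24.4 CPM (adjusted p = 0.0246). *Ldlrad4*, an inhibitor of TGF-β signaling, was at 37.5 CPM and at 92.1, 94.0 and 94.4 CPM (adjusted p = 0.0107). *Nedd4l*, a ubiquitin ligase, and *Pak3*, a kinase of the cytoskeleton, had log2FCs of 1.91 and 1.66. In the opposite direction, *Thbs2*, a thrombospondin of the extracellular matrix, was at 9.61 CPM in gray and at 2.40, 1.34 and 1.58 CPM in white matter, and *Dclk1*, a kinase that binds microtubules, was at 61.2 CPM and at 32.5, 36.8 and 33.8 CPM. White matter libraries did not overlap gray matter for any of these 7 genes. They were chosen after their values were seen, and all but *Ldlrad4* lost their call without white matter library 2 or 3.

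*Apod*, which encodes a lipid carrier, was at 2155 CPM in gray matter and at 4022, 9014 and 9291 CPM in white matter, but the white matter libraries of batch 1 and batch 2 were farther apart than library 1 was from gray matter, and the gene did not pass the test (adjusted p = 0.208). *Fth1*, the heavy chain of ferritin, was at 22865 CPM in gray matter and at 28240, 30259 and 31812 CPM in white matter (adjusted p = 0.321). Markers of neuroblasts, 8 genes, summed to 82.4 CPM in gray and 136 to 148 CPM in white matter oligodendrocytes, and none was called by edgeR, with 2 at an unadjusted p under 0.05 and 1 called by DESeq2. That gene, *Tubb3*, made up most of the sum.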
